A study of Mus musculus with 8 samples.

Results

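Of 869 A-to-I editing sites that the study listed in naive and Th17 cells of the mouse, 470 were listed for naive cells only. They were chosen by their listing: each had an edited level in both naive libraries and no level in either Th17 library. They made up 82.3% of the 571 sites listed for naive cells, while 101 further sites were listed for both groups and 298 for Th17 cells alone. The choice used the measured levels of these 4 libraries, so the absence of a Th17 level is a condition of the choice and not a result. A missing level is not a level of 0, since the table gave no coverage at these sites and a site without enough reads could be missing as well.

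C57BL/6 mice gave all the CD4+ T cells, and RNA depleted of ribosomal RNA was sequenced from 2 libraries in each group. The column labels mark the naive and Th17 libraries that chose the sites as WT, or wild-type. Their count labels also carry the name Malat1, whose meaning is not given. The naive cells were untreated. The Th17 cells were held for 72 h in medium with 0.25 µg/mL anti-CD3ε, 1 µg/mL anti-CD28, 0.1 ng/mL TGF-β and 20 ng/mL IL-6, although the growth protocol allows a wider TGF-β dose and the treatment protocol also names 48 h. A further pair of groups, wild-type and DDX5-deficient Th17 cells of a 72 h culture in the same medium, comes from a second editing table. Below, wild-type names the Th17 libraries of that second table, and comparing naive with wild-type levels is not a contrast of genotypes. The series describes the 2 libraries of a group as independent biological replicates but does not say whether they came from separate animals or cultures, so p-values measure only the spread between these libraries. The deficient libraries carry the label DDX5∆T, and the labels do not spell out which cells lack DDX5 or how the deletion was made.

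A-to-I editing is the conversion of adenosine to inosine in double-stranded RNA by the ADAR enzymes, Adar and Adarb1, and sequencing reads inosine as guanosine. Most known sites in mammals lie in introns and 3′ UTRs, where repeats in opposite orientation pair with each other, and a few in coding sequence change the encoded amino acid. ADAR enzymes are known to disfavour a guanosine just before the edited adenosine and to favour one just after it.

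The sites lay mostly in 3′ UTRs. The table's location column placed 367 of the 470 (78.1%) in a 3′ UTR, 42 (8.94%) in coding sequence, 34 outside genes, 24 in introns, 2 in a 5′ UTR and 1 in a stop codon. In the GENCODE annotation of the same mm10 build, 371 sites (78.9%) were in a 3′ UTR. Of the sites listed for both groups, 96 of 101 were in a 3′ UTR and 0 in coding sequence. Of those listed for Th17 cells alone, 235 of 298 were in a 3′ UTR and 9 in coding sequence. Of the 429 sites that fell in an annotated exon, 426 had an adenosine on the transcript's strand. The other 3 had a thymidine, 2 of them in a stretch where Inpp5e and Pmpca overlap and 1 in the noncoding gene Gm37768, and the strand of the edited transcript is unclear there.

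The windows below show 10 bases on each side of the edited adenosine, which stands in capitals, read 5′ to 3′ from GENCODE M21 transcripts. The first 4 are neighbouring sites in the 3′ UTR of Abhd2, a lipid hydrolase gene. The last 3 of these lie close together, and their levels are given below. The next 3 are single sites at high level. The next 4 are coding sites, and the last 2 lie in processed pseudogenes.
Abhd2, chr7:79360768: acttgtctaaAaattcagcct
Abhd2, chr7:79360840: tggggattttAatttttgaca
Abhd2, chr7:79360841: ggggattttaAtttttgacaa
Abhd2, chr7:79360851: atttttgacaAgtgccccagg
Xbp1, chr11:5525558: agccgaggctAggcagaaact
Parg, chr14:32296625: ctcagcttctAgatctttctc
Rbm8a, chr3:96632713: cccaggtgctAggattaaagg
Sbk1, chr7:126292289: ttctggcgctAgagcctgagc
Gpsm1, chr2:26344752: cgtggaggatAgagcagctca
Rpsa, chr9:120131419: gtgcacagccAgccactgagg
Rps24, chr14:24491811: cagaggaaacAgatggtcatt
Gm8942, chr10:115270042: cagaggaaacAgatggtcatt
Gm4332, chr3:119709828: gtattgagccAggagttgagg

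The edited level is the percent of reads at the site that carry the edited base. It was 14.3% at the median site in naive library 1 and 17.1% in naive library 2, and ranged from 2.47% to 74.7% as the mean of both libraries. Of these, 308 sites had at least 10% in both libraries and 11 had at least 50% in both. Sites listed for both groups had a median mean naive level of 34.6%. The lowest mean Th17 level among those 101 sites was 3.98%.

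The 2 naive libraries agreed loosely at single sites. Library 2 was above library 1 at 311 sites, below it at 152 and equal at 7, with a median absolute difference of 4.24 percentage points. At 31 sites they differed by over 20 points. Over the 470 sites Pearson's r between the libraries was 0.761 and Spearman's rho was 0.807, a description of sites that share both libraries. The widest gaps were at sites in the 3′ UTRs of Urb2, at 17.6% and 64.3%, and Thap2, at 21.4% and 66.7%. With no depth given at these sites, no counting interval can be set on any naive level.

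By location, the median of the mean naive level was 16.2% at 3′ UTR sites, 8.41% at coding sites, 25.7% at intron sites and 24.8% at sites outside genes. Every group spanned a wide range, and coding sites reached 35.9% at most.

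**Figure D1:**
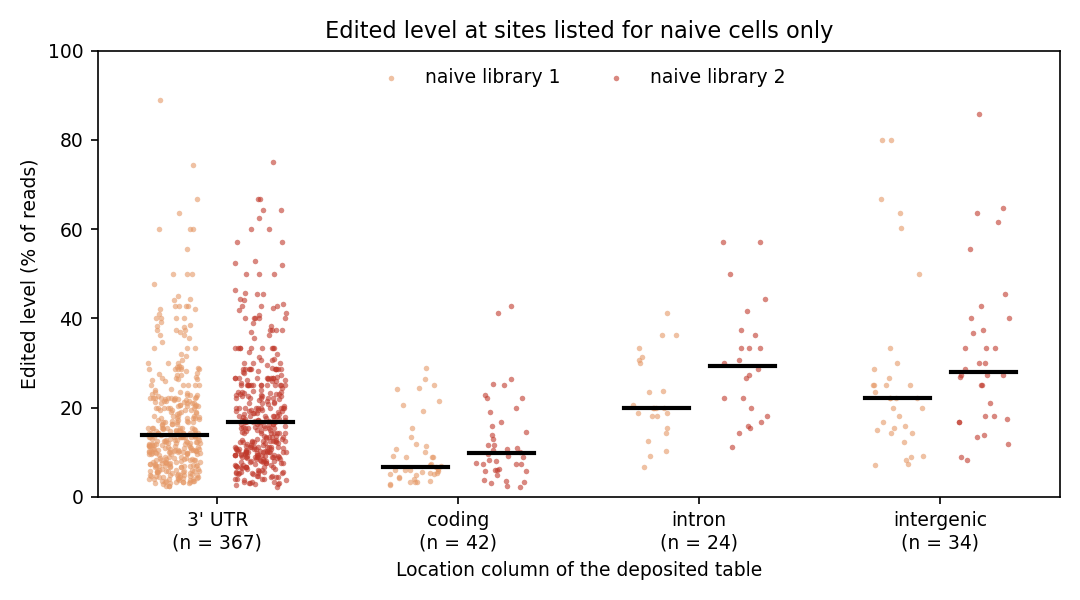
Edited level in percent of reads (y axis) in naive library 1 and library 2 for the sites in 4 location classes (x axis, n below each class), with 1 point per site and black bars for the median. Coding sites sit lowest, with medians of 6.78% and 9.76%, and the 3′ UTR sites cover the range from 2.21% to 88.9%.

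The highest levels were at few sites in many places. Read depth is unknown at these sites, so a high level may rest on few reads. A site outside annotated transcripts at chr15:78753570 had 63.6% and 85.7% in the 2 naive libraries. In Sfxn2, which encodes a mitochondrial serine transporter family member, 1 3′ UTR site had 88.9% and 60%. Parg, which encodes the enzyme that removes poly(ADP-ribose), had 63.6% and 64.3% at its site, and Rbm8a, an exon junction complex subunit, had 66.7% and 75%. The phosphatase subunit gene Ppp2ca had 60% and 66.7%. The lowest levels were in highly expressed genes: Rps24, a ribosomal protein gene, at 2.73% and 2.22%, Btg1, an antiproliferative gene of quiescent lymphocytes, at 2.42% and 2.63%, and Ucp2, a mitochondrial carrier gene, at 2.79% and 2.33%.

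The 470 sites fell in 261 host genes, with 34 sites outside genes. Of the host genes, 194 had 1 site, and 17 had 5 or more and held 119 sites together. In 218 host genes, with 299 of the sites, no other listed site was found, while 43 host genes, with 137 sites, also held a site listed for Th17 cells.

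Slfn5, a member of the interferon-induced Schlafen family, had the most, 11 sites over 1557 bases of its 3′ UTR, at mean levels of 7.70% to 20.2%. It also held 14 sites listed for both groups. Within 1 group of 11 neighbouring sites, 3 were listed for naive cells only, at 13.3% and 21.1%, 14.8% and 20.0%, and 11.0% and 12.2%, and the 8 listed for both reached 58.8% in naive library 1 and 75% in library 2. In library 2 the 3 naive-only sites were below all 8, and in library 1 one of the 8 was as low, at 13.6%. Tox4, a nuclear high mobility group protein gene, held 10 naive-only sites at mean levels of 9.68% to 30.7% and 3 sites listed for both. At the Tox4 site chr14:52293454, listed for both, levels were 44.9% and 47.9% in naive cells and 13.2% and 17.98% in Th17 cells.

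Abhd2 had 9 naive-only sites and no other listed site. A pair of adjacent adenosines of its 3′ UTR, shown above, had 5.88% and 8.57% at chr7:79360840 and 50% and 52.9% at chr7:79360841. The second adenosine thus had the higher level in both libraries, at a depth that is unknown. The site 10 bases further on had 42.0% and 28.9%. Mdc1, a mediator of the DNA damage checkpoint, held 9 sites at mean levels of 7.56% to 22.2%. Isg20l2, a ribosome biogenesis exonuclease gene, held 8 at 10% to 29.3%, with no site listed for the Th17 libraries that chose the sites. Its site chr3:87940165 was listed in the wild-type Th17 libraries, with 13.9% in library 2 (5 of 36 reads) against 10.6% and 15% in naive cells. Zfp398, a zinc finger gene, held 6 at 20.2% to 35.4%, also with none listed for the Th17 libraries that chose the sites. Wdr76 held 7 naive-only sites amid 9 listed for both and 12 listed for Th17 cells alone. Sites of all 3 kinds thus stood in 1 3′ UTR.

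**Figure D2:**
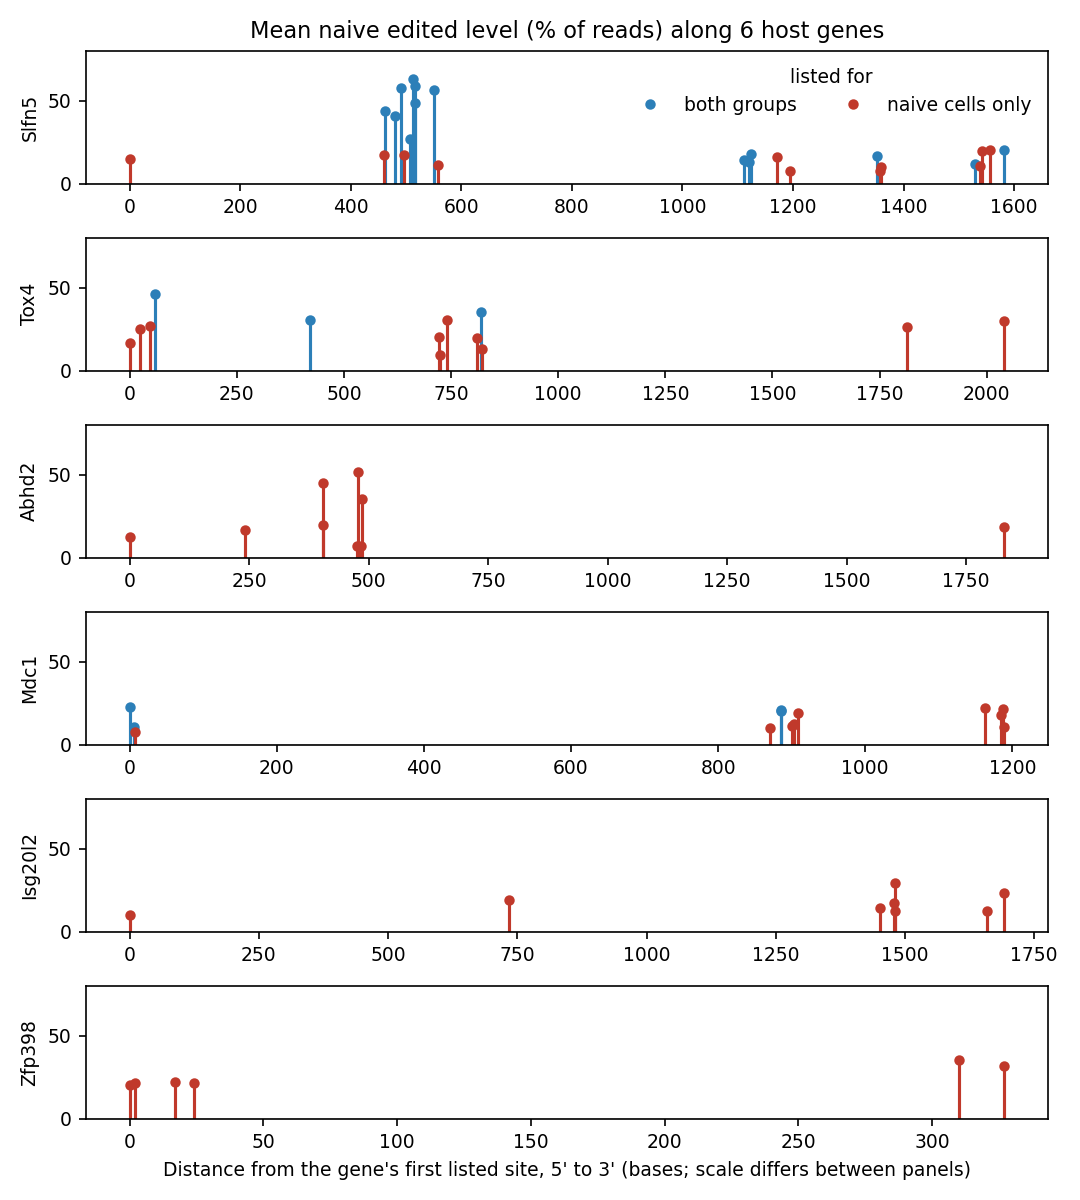
Mean naive edited level in percent of reads (y axis) at each site listed for naive cells, by distance in bases from the gene's first such site (x axis, its scale differing between panels) in the 6 genes Slfn5, Tox4, Abhd2, Mdc1, Isg20l2 and Zfp398. Red marks sites listed for naive cells only and blue marks sites listed for both groups, and in Slfn5 the blue sites of the tallest group stand above the red ones.

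Sites were grouped where neighbouring listed sites of any kind lay within 100 bases. By that measure 263 naive-only sites (56.0%) stood alone, 85 were in pairs and 122 (25.96%) were in clusters of 3 or more. Of sites listed for both groups 68.3% were in clusters of 3 or more, and of sites listed for Th17 cells alone 53.4%. Of the 46 clusters of 3 or more that held a naive-only site, 11 held no other kind and 35 also held a site listed for Th17 cells. In all, 95 naive-only sites shared a cluster with a Th17-listed site, and 129 lay within 10 bases of another listed site. Coding sites were mostly alone, 39 of 42.

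The bases next to the edited adenosine were taken from the transcripts of 426 sites. A guanosine came before it at 3.99% and after it at 54.5%. At the 369 of these in 3′ UTRs the shares were 4.34% and 52.8%, against 21.8% and 26.98% of all 3′ UTR adenosines of the expressed genes. At sites listed for both groups the shares were 4.12% and 45.4%. Among single 3′ UTR sites a guanosine came before at 1 of 183 and after at 64.5%. The letters TAG around the adenosine, read on the transcript strand, stood at 20.9% of naive-only 3′ UTR sites. By cluster they stood at 31.7% of single sites and 10.5% of sites in clusters of 3 or more. The share was 26.8% at 3′ UTR sites listed for both groups and 11.7% at those listed for Th17 cells alone. Of all 3′ UTR adenosines it was 4.78%. TAG was looked for after the neighbouring bases had been seen.

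Inverted repeats are stretches of 1 transcript that can pair with each other. A naive-only 3′ UTR site was counted inside one where the spliced transcript held a reverse-complementary arm of at least 50 bases and 75% identity. That held for 57 of 369 sites (15.4%, exact 95% binomial interval 11.9% to 19.5%, counting error only), against 38.1% of sites listed for both groups, 46.0% of those for Th17 cells alone, 0.735% of the host genes' 3′ UTR adenosines and 0.350% of those of all tested genes. The share moved with the cutoff, from 1.90% at an identity of 85% to 23.0% at 65%, but stood below the share of sites listed for both groups at each of the 4 cutoffs tried. By cluster it was 3.28% of single sites and 38.6% of sites in clusters of 3 or more. Slfn5 gave 10 of the 57, Dffa, the inhibitor of a DNA-cutting nuclease, 7, and Tox4 6. The sites share genes and repeats, so they are not independent, and introns and sequence outside transcripts were not searched.

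**Figure D3:**
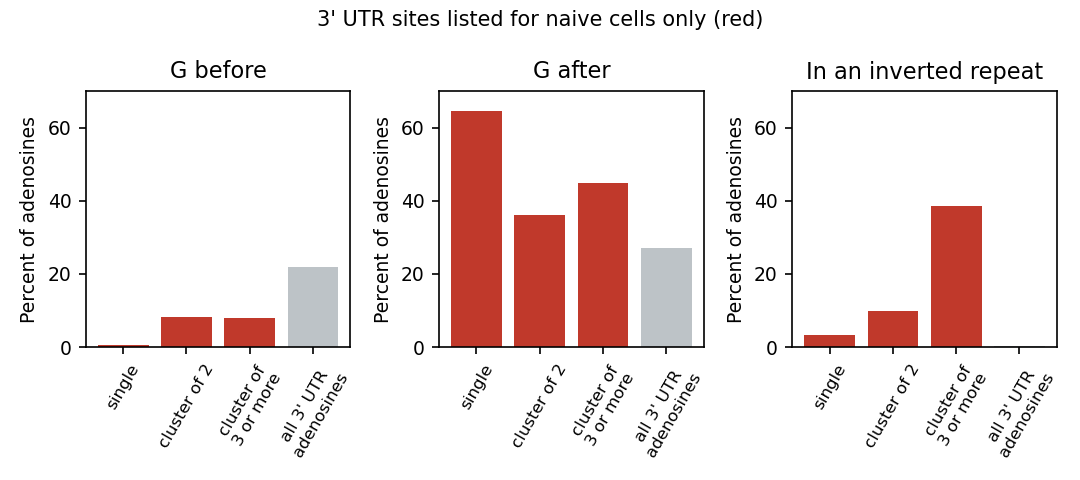
Percent of adenosines (y axis) with a guanosine before, with a guanosine after, and inside an inverted repeat, for naive-only 3′ UTR sites by cluster size (red, n = 183, 72 and 114) and for all 3′ UTR adenosines of tested genes (grey). Single sites have the highest share with a guanosine after, 64.5%, and clusters of 3 or more the highest share in an inverted repeat, 38.6%.

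The surroundings of some sites occur elsewhere in the transcriptome. Of 417 naive-only sites with a full window, 96 (23.0%) had the same 21 bases in an annotated transcript of another gene, on either strand, and 54 (12.9%) had them with G in place of the edited A. Overlapping gene models count as other genes here. At sites listed for both groups these shares were 39.8% and 21.5%. The Rps24 and Gm8942 windows shown above have the same letters, and the site levels were 2.73% and 2.22% in Rps24 but 60.3% and 55.6% in Gm8942. The Gm4332 window occurs with G in Rps20, a ribosomal protein gene, and the Gm4332 site had 80% and 64.7% in naive cells. How reads were placed among such copies is not given in the sources used here, and its part in these levels was not tested.

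The GENCODE annotation also put 42 sites in coding sequence, which leave out 1 of the table's 42, in Cic, and add 1 that the table placed outside genes, at chr14:53517293. At these, editing would change an amino acid at 22 sites and leave it unchanged at 20. A guanosine followed the edited adenosine at 30 of the 42. The highest coding level was in Sbk1, a kinase gene, at 28.8% and 42.9%, without an amino acid change. Gpank1, a nuclear protein gene, followed with 20.7% and 41.2%, also without a change. Gpsm1, a regulator of G protein signalling, had 25% in both libraries at a site that changes the amino acid, and Gpsm3, of the same family, had 15.4% and 19.96% at another. Odc1, the first enzyme of polyamine synthesis, had 8.89% and 9.09% with a change. The Rps24 and Ucp2 sites at the low end change an amino acid too. Exact copies of the Rpsa window were found in 11 other annotated genes and of the Odc1 window in 6, so their levels are uncertain.

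Expression of the host genes was read from the counts per gene. The 2 naive libraries held 20426728 and 16154625 counted reads, and the 2 Th17 libraries 26624436 and 11768994. Th17 markers rose and naive CD4 markers fell, 5 of 5 and 6 of 6, by edgeR's quasi-likelihood test. B cell, NK and myeloid marker genes summed to between 2.12 and 12.6 CPM (counts scaled to the library's total adjusted by its TMM factor) in the naive libraries. The CD8 markers summed to 21.1 and 28.1 there, nearly all from Cd8b1, itself a host gene, at 20.8 and 27.4. The other CD8 marker, Cd8a, had only 0.265 and 0.704. Foxp3, the regulatory T cell marker, had 7.64 and 5.84. Fewer cells of a type and less RNA per cell cannot be told apart in such bulk samples, and the part of other cells in the sites was not tested.

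Over all genes tested edgeR called 65.1% at an adjusted p under 0.05, 34.3% higher and 30.7% lower in Th17 cells. Of 259 host genes tested, 130 (50.2%) were lower in Th17 cells, 45 (17.4%) were higher and 84 were not called. The count higher fell without naive library 2, and was 29 with no filter on low counts. The share called over all genes in those settings is not reported here. The median log2 fold change of the host genes was -0.47, against 0.06 over 11989 genes. Tmem265 was not matched, and Raet1e, with 0 reads in both naive libraries, was under the filter although the table listed 2 intron sites in it. Since the same 4 libraries chose the sites, and a site needs reads to be listed, these counts describe the chosen genes and nothing is read from them. By read number, in Th17 library 2, the shallowest, reads were fewer than in both naive libraries at 191 of 260 host genes (73.5%), against 51.4% of all tested genes. In both Th17 libraries at once this held at 26.5% of host genes, against 17.96%.

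The level of a site and the expression of its host moved in opposite directions. Over 433 sites Spearman's rho between the mean naive level and the host's naive CPM per kb of exon was -0.489, a description of sites that share genes and libraries. The lowest level found fell from 6.07% in the first of 4 groups of sites ordered from low to high host expression, through 5.86% and 4.28%, to 2.47% in the last group. The median level fell from 22.1% to 7.64%. A low level can be seen only where reads are many, and how much of the relation that gives was not tested.

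**Figure D4:**
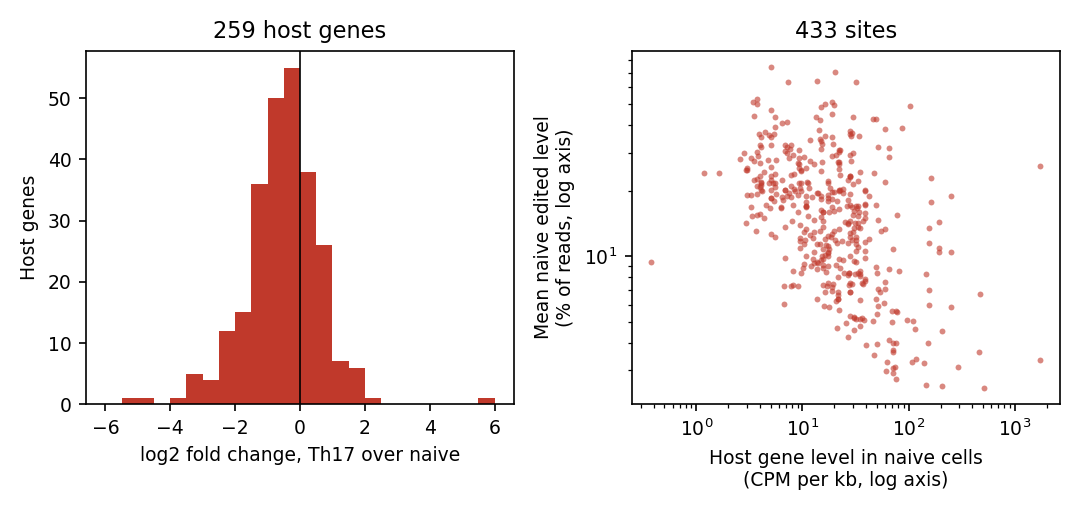
Left, number of host genes (y axis) by the log2 ratio of Th17 to naive expression (x axis) for 259 host genes, most of them below 0. Right, mean naive edited level in percent of reads (y axis, log) against host gene level in naive cells in CPM per kb (x axis, log) for 433 sites, where the lower edge of the points falls as expression rises.

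Among host genes with at least 10 CPM in 1 group, Itga4, the α4 integrin, fell most. It had 438 and 273 CPM in naive cells and 8.15 and 9.26 in Th17 cells, a log2 fold change of -5.35 ± 0.29 (SE, n = 2 per group, edgeR adjusted p = 4.76e-06). Its 1 site had 11.7% and 17.2%. Klf3, a repressor of lymphocyte activation genes, fell from 280 and 225 CPM to 7.70 and 11.6, and its site had 6.67% and 11.1%. The adaptor Grap2, in T cell receptor signalling, fell from 829 and 648 CPM to 92.4 and 81.6. The zinc finger gene Zfp652, the receptor adaptor Trat1, the kinases Camk2b and Sbk1, and Clec2d, a ligand of an NK receptor, fell by log2 values between 3.85 and 3.01. In each of these the CPM of the groups did not overlap. The genes were picked for the largest falls in these same libraries, so nothing is read from that.

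Other host genes rose, though the reads at their sites in Th17 cells are unknown. Odc1 had 42.3 and 39.1 CPM in naive cells and 2539 and 1972 in Th17 cells, a log2 fold change of 5.80 ± 0.25 (SE, n = 2 per group, edgeR adjusted p = 2.88e-07). Xbp1, a transcription factor of the unfolded protein response, had 44.2 and 50.1 CPM against 172 and 156, with an edited level of 40.9% and 44.1% in the naive libraries. Mad2l1, a spindle checkpoint gene, Klf6, a transcription factor, Lrrc58 and Cdca7 rose by log2 values of 1.63 to 2.17. Ube2e3 was not called at a log2 fold change of 1.62, with 17.1 CPM in Th17 library 1 and 88.8 in library 2, and without library 2 the value was -0.01. In all, 62 of 433 sites lay in host genes called higher in Th17 cells, 241 in genes called lower and 130 in genes not called. A gene with several sites counts several times here. By gene, 34.3% of all genes tested were called higher and 30.7% lower. Nothing is read from these site counts.

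Host genes were 2.16% of all genes tested. They were also more highly expressed, with a median naive CPM of 117 against 30.4 over all genes tested. None of 30 listed editing enzymes and partners was a host gene. Of the 26 tested, 10 rose and 8 fell, against 34.3% and 30.7% of all genes tested. Adar had 350 and 259 CPM in naive cells and 141 and 126 in Th17 cells, and Adarb1 had 1.38 and 1.27 against 240 and 187. Of 29 naive and quiescence genes tested, 3 were host genes, Btg1, Ets1 and Klf3, all of which fell, as did 26 of the 29. Of 33 T cell receptor signalling genes tested, 3 were host genes, with Cd247 and Grap2 lower and Malt1 higher. Over all 33, 24 were called lower and 3 higher. Of 387 zinc finger genes tested, 8 were host genes. No test was made of these shares. Trim25 among sensors of double-stranded RNA and Stat2 among interferon-stimulated genes were not called.

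In the second table, wild-type and DDX5-deficient Th17 cells, 29 of the 470 sites (6.17%) were listed, against 53 of 101 sites listed for both groups and 154 of 298 for Th17 cells alone. DDX5 is an RNA helicase. That table was made from other Th17 libraries than the rule used. It lists only sites called in both wild-type libraries, so the 29 are the ones that passed there. Both naive levels were above both wild-type levels at 16 of the 29 and below at 2, against 47.6% and 19.5% of the 82 naive-listed sites of that table. Of the 53 listed for both groups, 23 had both naive levels above and 14 below. Since the naive levels were part of the choice, these counts are a description. The naive and wild-type levels come from separate libraries and tables and were not tested against each other.

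The synonymous Rpsa site at chr9:120131419 had naive levels of 26.5% and 25.4%, against 3.33% and 3.70% in the wild-type Th17 libraries. In wild-type library 2 that was 98 of 2651 reads (exact 95% binomial interval 3.01% to 4.49%, counting error only). At the Xbp1 site, 40.9% and 44.1% stood against 9.24% and 8.03%, the latter 11 of 137 reads. Selenot, a selenoprotein gene, had 38.3% and 39.0% against 5.33% and 9.09%, and Pum2, an RNA-binding repressor of translation, had 44.1% and 41.9% against 7.32% and 11.4%. At these 4 sites the naive levels lay above the wild-type ones with no overlap. These sites were named after their values were seen, and the Rpsa level is uncertain because of the copies given above. The Gm4332 site ran the other way, with 80% and 64.7% in naive and 92.0% and 96.2% in wild-type cells.

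**Figure D5:**
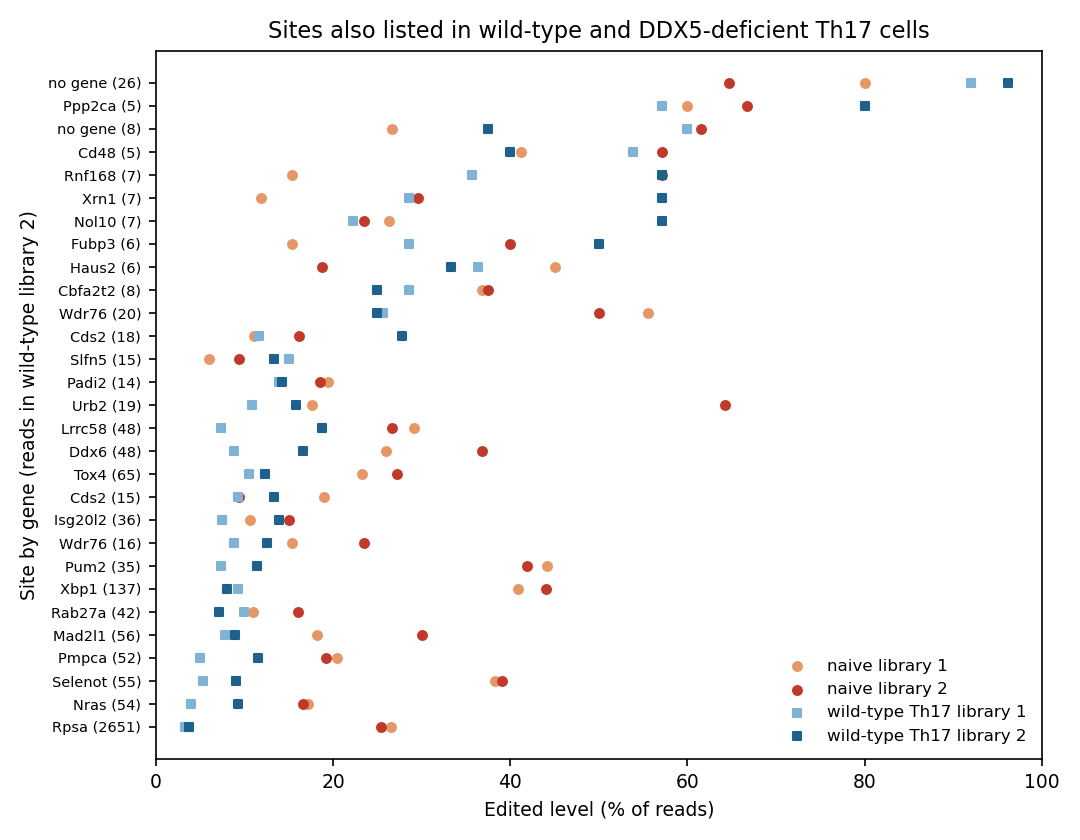
Edited level in percent of reads (x axis) at the 29 sites also listed in the second table, by host gene with the reads of wild-type library 2 in brackets (y axis), for the 2 naive libraries (circles) and the 2 wild-type Th17 libraries (squares). Circles lie right of both squares at 16 of the 29 sites, and most sites at high wild-type levels rest on fewer than 10 reads.

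Loss of DDX5 was tested at the 26 sites with a level in all 4 libraries, in a limma fit over 328 sites. No site was called, among the 26 or among all 328 (0% called), while 1 of the 26 and 31 of the 328 had an unadjusted p under 0.05. The smallest adjusted p among the 26 was 0.423, at a site outside genes in the first table (60% and 37.5% in wild-type cells, 16.7% in both deficient libraries). Both deficient levels were below both wild-type levels at 5 of the 26 sites and above at 3, against 23.8% and 19.5% of all 328. Selenot was 1 of the 3, with 15.6% and 16.0% in the deficient libraries. With 2 libraries per group, these tests do not show that levels were equal.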

How the data were processed

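Ribosome-depleted RNA of 8 libraries was sequenced, 2 in each of 4 groups. STAR 2.6.1a, featureCounts, DESeq2 1.18.1 and mm10 appear in the submitters' processing notes, and the labels name SAILOR, an editing caller, with a confidence of 0.99; its version and the use of strand in counting are not given in the sources used here. The authors deposited counts per gene, called original per the file headers, and the edited fraction of reads per site, printed here as a percent. The confidence score the authors deposited per site was not used. The deposited coverage count matched only library 2 of the Th17 and wild-type groups (multiplied by the fraction it gave whole reads, within 0.01, at 100% of sites), so the depth behind naive levels is unknown.

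Counts were tested with edgeR 4.0.16 (filterByExpr, TMM, robust quasi-likelihood fit, Benjamini-Hochberg adjustment) and DDX5 levels with limma 3.58.1 on the arcsine square root of the fraction. Sites were located in GENCODE M21, and inverted repeats were searched with BLAST 2.17.0 (E-value 0.001). Strand came from the annotated gene.

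Named sites were those of highest and lowest level, largest library difference, coding sequence or second-table listing; named genes were those with most sites, largest change among genes with at least 10 CPM in 1 group, highest CPM, Th17-listed sites or list membership. Not every gene that the rule names is reported here. The members and lists were chosen with earlier results of these data known. Inverted repeats, TAG, window copies, read comparisons, the 4 expression groups and the naming of the Xbp1, Selenot, Pum2 and Gpsm3 sites were added after the files were seen.

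Both tests were tried on simulated data. edgeR recovered most large changes and fewer small ones, with a share of false calls above its nominal level. For limma, 4 simulations were written one after another, the later ones after the earlier results had been seen, and all were kept and drawn with repeated seeds. Small shifts were recovered from never to mostly, depending on the noise model and the draw, and false calls exceeded the nominal share in some draws. A limma result of 0 calls therefore does not show equal levels.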

Additional observations from a re-analysis of the deposited data

How the results depend on the processing

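The count of host genes called lower in Th17 cells stayed within 1.5 times in all 9 alternatives, from 114 to 125 when 1 library was left out, against 130. The count called higher fell from 45 to 29 with no filter on low counts, and to between 25 and 44 when 1 library was left out, 25 without naive library 2. With library numbers as a replicate block, 129 were lower and 47 higher. Library 2 of both groups carries the same number in its label, whose meaning is not given, and deviations of same-numbered libraries had r = -0.08 over 11989 genes, so the pairing is unsettled. Of 53 named host genes, 41 kept their direction and call in every alternative and 5 lost a call in at least 1. Uncalled genes changed sign: Tox4 to -0.041 without Th17 library 1 (0.19 without library 2), Lcp1 to 0.0098 with DESeq2 size factors, 0.0047 with the DESeq2 test, 0.0066 without naive library 2 (-0.15 without library 1) and 0.028 without Th17 library 2, Stat2 to -0.0066 with no filter, -0.29 without naive library 2 (0.27 without library 1) and -0.05 without Th17 library 1, and Ube2e3 to -0.0094 without Th17 library 2 (2.35 without library 1). The cause was not tested.

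Requiring at least 10% in both naive libraries left 308 of the 470 sites. With 1 site per cluster, a guanosine came before at 1.40% and after at 60.8%. The median level was 14.3% to 17.1% with 1 naive library alone. Inverted repeats held 8.67% of 3′ UTR sites with arms of 100 bases, 1.90% at 85% identity and 23.0% at 65%, settings chosen after seeing the data. The DDX5 test called 0 sites under all 8 alternatives, the replicate block included, with smallest adjusted p from 0.346 to 0.866.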
